A study of Mus musculus with 9 samples.

Results

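The comparison described here is granulosa cells infected with an adenovirus expressing Cre recombinase against granulosa cells infected with an adenovirus expressing enhanced GFP, and its members are the 3 arrays titled for Cre and the 3 titled for GFP among the 9 arrays of the series. Every tested probe set, a group of short probes read as a single value for a transcript, was compared: 45037 probe sets, which gave 18193 named genes. Granulosa cells were collected by needle puncture from mice 20 to 26 days old and of various genotypes, 48 h after equine chorionic gonadotrophin. They attached overnight in medium with 1% serum and were then infected for 24 h without serum at a nominal multiplicity of infection of about 50. The 6 arrays thus share the hormone, the culture and an adenovirus, and both groups differ by label only in the protein that the virus expressed. The series' design text says that Cre recombined floxed alleles of Ctnnb1. Which cells carried those alleles, whether recombination removes or stabilises beta-catenin, and whether any Cre array came from cells with no floxed allele are not given in the sources used here. No uninfected cells were analysed here, so a response that both viruses share is not visible. The remaining 3 arrays came from cells infected with a WNT4 adenovirus, and their values are given beside some results.

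Cre is a bacteriophage recombinase that joins 2 loxP sites and removes or turns the DNA between them. Beta-catenin, the product of Ctnnb1, joins cadherins at cell junctions, and in the nucleus it acts with TCF and LEF factors when WNT ligands bind Frizzled receptors and their LRP co-receptors. Axin2 is a widely used readout of that pathway. In the follicle, granulosa cells respond first to FSH and then to LH, and they turn into luteal cells after ovulation. The transcription factor p53 is stabilised by DNA damage and raises genes that stop the cell cycle or start apoptosis.

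No probe set passed the test. With limma and Benjamini-Hochberg adjustment, 0 of the 45037 probe sets (0%) had an adjusted p under 0.05, and every adjusted p in this comparison was 1. At an unadjusted p under 0.05 there were 1006 probe sets (2.23%), fewer than the 2251.85 that 5% of those tested would be. Of these, 455 (1.01%) were higher and 551 (1.22%) lower on the Cre arrays. In 2712 probe sets (6.02%) the groups did not overlap, which is called separated here. By exact permutation of 3 and 3 arrays, the expected share of such probe sets is 0.1, and the share found was below it. The 3 Cre arrays lay entirely above the 3 GFP arrays in 1342 probe sets (2.98%) and entirely below in 1370 (3.04%). Centring each array on its median gave 2157 above among 3262 (66.1%) in place of 49.5%, and centring on the 75th percentile gave 857 among 2870 (29.9%), so the balance of directions over all probe sets follows the scaling. Counted once per gene, 648 genes (3.56%) were separated with Cre higher and 481 (2.64%) with Cre lower. These percentages are the background for the counts that follow. Of the 10556 genes with a mean of at least 6, 5.08% were separated with Cre higher and 1.84% with Cre lower. These are the closer background for lists of mostly bright genes, such as the p53 targets (25 of 28). The median gene differed by -0.01 on the log2 scale, the 5th and the 95th percentile of all probe sets were -0.24 and 0.29, and the median standard error was 0.13. Every difference below is Cre minus GFP on the log2 scale with its standard error from the fit, and its adjusted p was 1. The fit pools the spread of the GFP, Cre and WNT4 arrays, so scatter among the WNT4 arrays enters each standard error and p. The labels call the replicates biological without saying that they were separate cultures or animals, so the tests measure only how these samples vary.

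**Figure D1:**
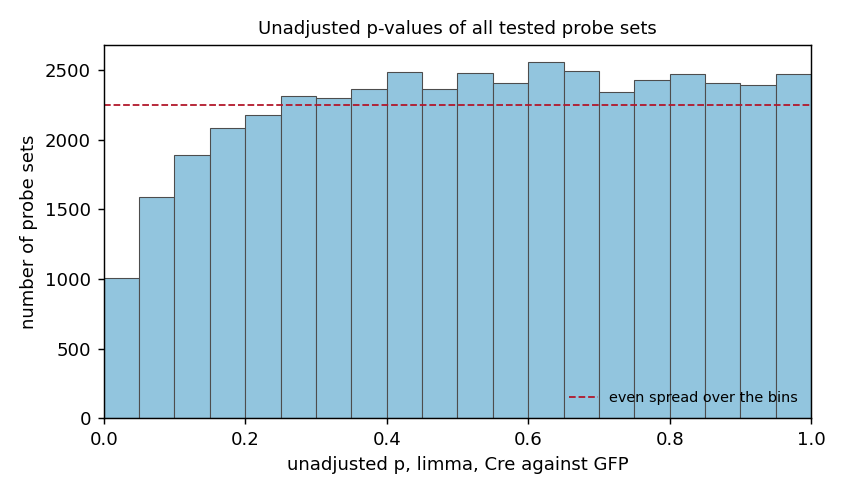
Number of probe sets (vertical axis) in each of 20 equal bins of the unadjusted p from limma (horizontal axis), Cre against GFP. The dashed line is an even spread over the bins. The lowest bin holds 1006 probe sets, below the line at 2251.85.

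Array Cre 3 stood apart. On it 564 probe sets lay more than 1 log2 unit from the mean of Cre 1 and Cre 2 while those 2 were within 0.5 of each other, against 198 for Cre 1, 118 for Cre 2 and 96 to 233 for the GFP arrays. The array WNT4 3 stood apart in the same way, with 705 probe sets. The deviations of Cre 3 and WNT4 3 from the means of their own groups correlated at 0.77 over the 45037 probe sets, which share the same RMA normalization. The difference between the 3' and 5' control probe sets of Gapdh was 0.95 on Cre 3 and 1.77 to 1.86 on the other 5 Cre and GFP arrays, while that of actin was 1.05 to 1.28 on all 6. What sets Cre 3 apart was not tested. Some values are also given without Cre 3, and others can move without it too. Without it there were 0 probe sets at an adjusted p under 0.05 and 693 at an unadjusted p under 0.05.

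The granulosa label was matched by its defining markers. All 10 listed markers were measured. Inha, the inhibin alpha subunit, read 13.28, 13.30 and 13.49 on GFP 1, 2 and 3 and 13.21, 13.50 and 12.93 on Cre 1, 2 and 3. Follistatin, the activin-binding protein encoded by Fst, read between 12.20 and 12.67 on all 6 arrays. Foxl2, the transcription factor that maintains granulosa identity, read 10.54, 10.44 and 10.70 on the GFP arrays and 10.23, 10.41 and 10.20 on the Cre arrays. The groups did not overlap in Foxl2, which differed by -0.28 ± 0.11. Amh, the anti-Müllerian hormone of small follicles, was dim and also separated, with 6.03 to 6.23 on the GFP arrays and 5.84 to 5.98 on the Cre arrays (-0.20 ± 0.09). These 2 were 20% of the list, against 2.64% of all genes separated with Cre lower and 1.84% of those with a mean of at least 6. The other 8 markers overlapped between the groups, and the median of the 10 was -0.12, or -0.01 without Cre 3.

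Oocyte transcripts were also present, and they differed between arrays of the same group. Zp3, a zona pellucida glycoprotein made by the oocyte, read 6.81, 8.10 and 6.48 on the GFP arrays and 8.71, 8.02 and 6.79 on the Cre arrays. Gdf9, a growth factor that the oocyte sends to granulosa cells, read 8.80, 9.70 and 8.47 on GFP and 10.07, 9.64 and 8.85 on Cre. GFP 2, Cre 1 and Cre 2 were the high arrays for both genes, so the groups overlapped. None of the 15 oocyte markers measured was separated or had an unadjusted p under 0.05. Their summed level ran from 10.62 to 11.67 on the GFP arrays and from 10.83 to 12.07 on the Cre arrays (log2), and their median difference was 0.37, or 0.61 without Cre 3. Leaving out single arrays gave 0.17 to 0.66. Leukocyte markers gave a median difference of 0.003 over 15 genes, with 0 separated, and summed levels of 11.36 to 11.80 on GFP and 11.41 to 11.83 on Cre. By array their median was -0.27 on Cre 1, -0.11 on Cre 2 and 0.25 on Cre 3, and without Cre 3 the median difference was -0.19. RNA from bulk cultures does not tell fewer cells of a type from less RNA per cell.

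Ctnnb1, the gene that Cre was meant to recombine, was not lower on the Cre arrays. Its brightest probe set read 13.40, 12.92 and 13.42 on the GFP arrays and 12.96, 13.55 and 13.33 on the Cre arrays. The difference was 0.04 ± 0.21, with GFP 2 and Cre 1 the lowest arrays. The other 2 probe sets gave 0.10 ± 0.23 and 0.20 ± 0.24, and all 3 overlapped between the groups. The sign of the brightest probe set turned under quantile normalization (-0.06) and under centring on the 75th percentile (-0.01). The sources used here do not place these probe sets relative to the recombined part of the gene, so they do not check the recombination.

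Wnt4 itself was higher on the Cre arrays. Wnt4 encodes a secreted ligand needed for ovarian development. Its brighter probe set read 9.93, 9.16 and 9.13 on GFP 1, 2 and 3 and 11.25, 10.47 and 10.18 on Cre 1, 2 and 3. All 3 Cre arrays exceeded all 3 GFP arrays, by 1.23 ± 0.34 on average, a ratio of 2.34. On the arrays labelled WNT4 the same probe set read 8.97, 9.89 and 9.16, which is lower than on the Cre arrays by 1.30 ± 0.34 (limma, adjusted p = 0.773). The second probe set read 9.13, 7.57 and 8.27 on GFP and 10.01, 9.81 and 9.05 on Cre, with GFP 1 above Cre 3 (1.30 ± 0.49). It read 9.91, 9.62 and 8.36 on the arrays labelled WNT4. Neither probe set thus shows the WNT4 label as an excess over the Cre arrays, and the sources used here do not say whether either can read the transcript of the virus.

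Among the receptors, Fzd1 showed the largest difference of the 25 WNT ligands, receptors and co-receptors measured. This Frizzled receptor read 7.52, 7.34 and 7.75 on the GFP arrays and 9.35, 8.24 and 8.99 on the Cre arrays. The groups were 1.32 ± 0.29 apart, with Cre 2 closest to GFP. The ligand gene Wnt5a read 9.43 to 9.45 on the GFP arrays and 9.77, 9.83 and 10.47 on the Cre arrays, 0.58 ± 0.24 apart, or 0.36 without Cre 3. Fzd7 was separated by 0.43 ± 0.19, or 0.26 without Cre 3. In all, 4 of the 25 genes were separated with Cre higher and 0 with Cre lower, against 3.56% and 2.64% of all genes, and the list's median was 0.03. Fzd4, a receptor for WNT ligands and norrin, and Fzd3 had differences of -0.69 ± 0.38 and -0.51 ± 0.27, and both overlapped. Without Cre 3 the difference of Fzd4 was -0.34.

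Downstream of the receptors, the RNA of genes for proteins that degrade or carry beta-catenin was then compared. Of the 24 genes of this machinery measured, among them Apc, Axin1 and Gsk3b, 0 had an unadjusted p under 0.05. Csnk1d, a casein kinase, was the 1 separated gene (4.17%, against 2.64% of all genes with Cre lower), at -0.15 ± 0.10. But the 5 Csnk1d probe sets that averaged 6 or more ranged from -0.15 to 0.70. Among 16 WNT antagonists and co-repressors only Tle3, a Groucho co-repressor, was separated (6.25%, against 3.56% of all genes with Cre higher). Tle3 read 8.30 to 8.41 on GFP and 8.62 to 8.76 on Cre (0.30 ± 0.08).

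Among the targets of beta-catenin, 6 were separated with Cre higher. Axin2, which takes part in the degradation of beta-catenin and is itself induced by it, read 7.42, 6.78 and 7.24 on GFP 1, 2 and 3 (7.15 ± 0.33, SD, n = 3). On Cre 1, 2 and 3 it read 9.27, 7.94 and 8.47 (8.56 ± 0.67, SD, n = 3). Every Cre array lay above every GFP array, by 1.41 ± 0.33 on average, a ratio of 2.67. The arrays labelled WNT4 read 8.14, 7.39 and 7.87, and their mean of 7.80 lay between the means of the 2 groups. WNT4 2 lay within the GFP range and WNT4 1 within the Cre range. A second, dim Axin2 probe set did not show it, at 0.03 ± 0.17, and all of its values lay between 4.57 and 5.20. Bambi, a decoy receptor of the TGF-beta family, read 6.46, 6.60 and 6.97 on GFP and 8.53, 7.14 and 8.21 on Cre (1.28 ± 0.38). Apcdd1, a membrane protein that binds WNT ligands, read 8.99, 9.44 and 8.43 on GFP and 9.53, 9.57 and 9.69 on Cre (0.65 ± 0.24). Both groups of arrays were again separated, narrowly so in Apcdd1, where GFP 2 came within 0.1 of Cre 1. The 4 Apcdd1 probe sets that averaged 6 or more gave differences of 0.0007 to 0.73. Jun, Id2 and Rnf43 completed the separated targets, at 0.81 ± 0.31 (0.51 without Cre 3), 0.51 ± 0.18 and 0.31 ± 0.12. Another Id2 probe set differed by 0.26.

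In all, 6 of the 19 beta-catenin targets measured (31.6%) were separated with Cre higher, 0 with Cre lower, and the median was 0.21, or 0.23 without Cre 3. The same share over all genes was 3.56% and the median -0.01. Other members often used as pathway readouts overlapped between the groups. Lef1, a DNA-binding partner of beta-catenin, differed by -0.01 ± 0.11, Nkd1, an inhibitor of Dishevelled, by -0.06 ± 0.08, and Lgr5, a receptor for R-spondins, by 0.22 ± 0.13. Without Cre 3 these were 0.05, -0.09 and 0.36. Lef1 was dim on all 6 arrays, with values of 4.45 to 4.75. Cd44, a hyaluronan receptor, had a larger mean difference of 1.58 ± 0.91, but GFP 3 lay above Cre 2 (6.43), and Cre 3 was highest at 8.98. Without Cre 3 the difference of Cd44 was 0.84. A match to the TCF/LEF letters CTTTGAT or CTTTGAA, on either strand, stood in 2 of the 18 RefSeq promoters found for 13 of these genes (11.1%), those of Sp5 and Tnfrsf19. Promoters on chromosome 18 were left out of the search, so listed genes there count as not found. Of all 32851 promoters searched, which had the same length, 8.65% had a match.

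Targets of p53 held the most separated genes of any list. All lists were chosen with earlier results of these data known, so such counts are a description. Of 28 measured, 9 were separated with Cre higher (32.1%) and 0 with Cre lower. Among the beta-catenin targets 31.6% were separated with Cre higher. The share with Cre higher was 3.56% of all genes and 5.08% of those with a mean of at least 6. At an unadjusted p under 0.05 were 8 members with Cre higher (1.24% of all genes) and 1, Sesn1, with Cre lower (1.29%). The differences of 25 were above 0. Cdkn1a, the cyclin-dependent kinase inhibitor p21, read 12.26, 12.03 and 11.90 on the GFP arrays (12.06 ± 0.18, SD, n = 3) and 12.67, 12.83 and 13.10 on the Cre arrays (12.87 ± 0.22, SD, n = 3). The groups were 0.80 ± 0.16 apart, a ratio of 1.74, and the arrays labelled WNT4 were higher still, at 13.82, 13.36 and 13.64. Btg2, an antiproliferative gene, read 8.58 ± 0.23 on GFP and 9.39 ± 0.39 on Cre (SD, n = 3), a separated difference of 0.82 ± 0.21, or 0.62 without Cre 3. Mdm2, the ubiquitin ligase that degrades p53, read 9.81, 9.73 and 9.77 on GFP and 10.15, 10.33 and 10.46 on Cre (0.54 ± 0.16). In Mdm2 the 3 GFP arrays lay within 0.1 of each other. Ccng1, which encodes cyclin G1, read 12.21, 12.19 and 12.00 on GFP and 12.63, 12.86 and 12.64 on Cre (0.58 ± 0.18). Polk, a translesion DNA polymerase, read 8.47, 8.16 and 8.23 on GFP and 8.60, 8.74 and 8.81 on Cre (0.43 ± 0.12). Ephx1, Bbc3 (which encodes PUMA, a trigger of apoptosis), Plk2 and Plk3 were the other separated members, at 0.49 ± 0.15, 0.64 ± 0.20, 0.66 ± 0.28 and 0.07 ± 0.09.

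The p53 targets were not uniform. Sesn1, a stress-induced inhibitor of mTORC1 signalling, read 9.51, 9.72 and 9.93 on GFP and 9.24, 9.56 and 9.24 on Cre (-0.37 ± 0.14), overlapping through GFP 1 and Cre 2, and another of its probe sets differed by 0.23. The damage-recognition genes Xpc and Ddb2 differed by -0.11 ± 0.15 and 0.01 ± 0.20. The median of the list was 0.28, or 0.30 without Cre 3. By array it was 0.35 on Cre 1, 0.26 on Cre 2 and 0.08 on Cre 3, against -0.07 to 0.05 on the GFP arrays. All 9 separated members had a higher mean on the arrays labelled WNT4 than on the Cre arrays, and those arrays gave list medians of 0.54 to 0.78. Both virus groups are read against the same GFP arrays, so these values are not independent of each other.

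**Figure D2:**
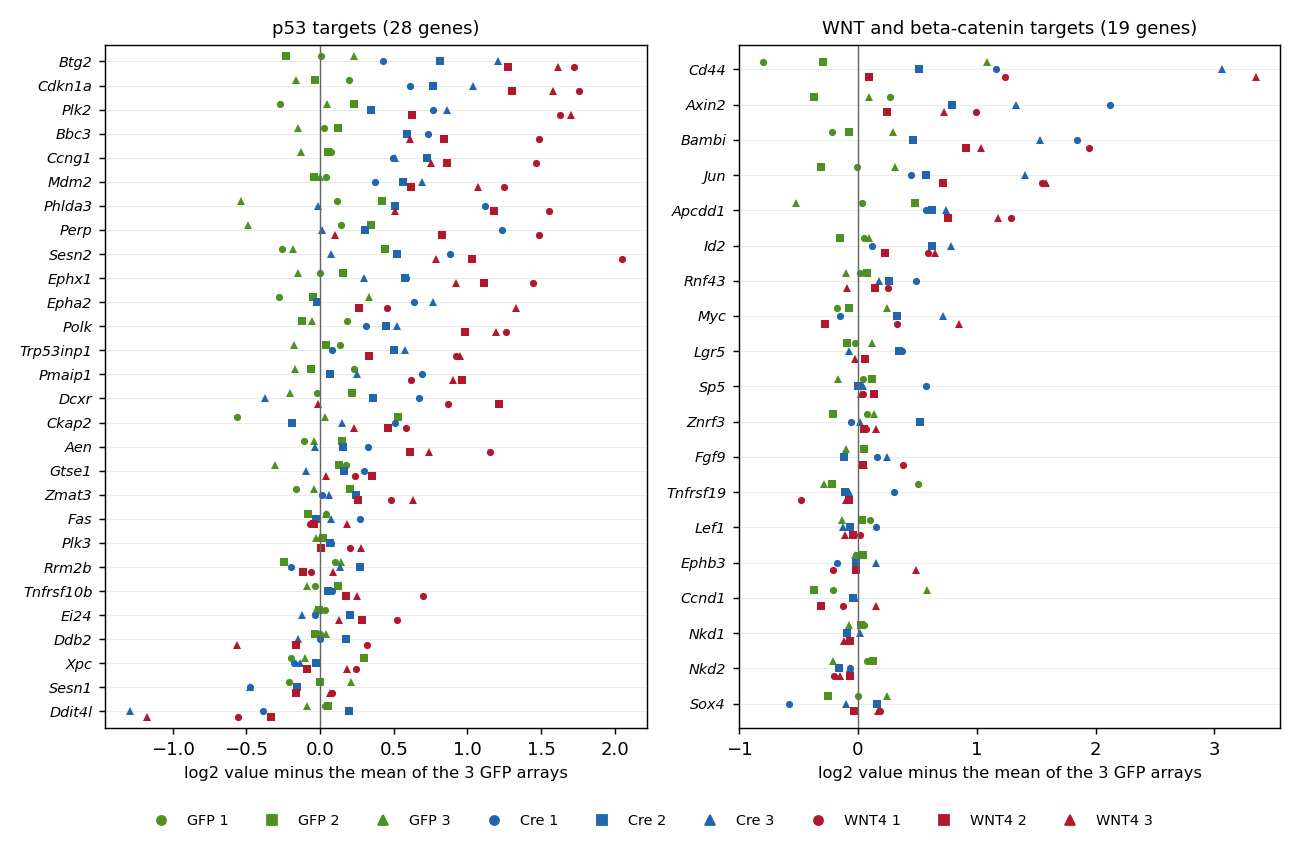
Each gene's log2 value on each array minus the mean of its 3 GFP arrays (horizontal axis), for the p53 targets (left) and the beta-catenin targets (right), with genes ordered by the difference between Cre and GFP. Colours mark the groups and symbols the replicate numbers. In Cdkn1a and Mdm2 the 3 Cre arrays lie right of all GFP arrays, and in Cd44 and Ckap2 the groups overlap.

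The promoters of 4 separated p53 targets are printed because each holds the letters of a p53 half-site, the 10-base unit of which 2 make a p53 response element. Each is the 250 bases before a RefSeq start site (build GRCm38.p6), read 5′ to 3′ on the gene's strand, with half-sites in capitals. Cdkn1a lies at chr17:29090729-29090978 on the plus strand. Mdm2 lies at chr10:117710759-117711008, Ccng1 at chr11:40755287-40755536 and Polk at chr13:96519188-96519437, all on the minus strand.
Cdkn1a: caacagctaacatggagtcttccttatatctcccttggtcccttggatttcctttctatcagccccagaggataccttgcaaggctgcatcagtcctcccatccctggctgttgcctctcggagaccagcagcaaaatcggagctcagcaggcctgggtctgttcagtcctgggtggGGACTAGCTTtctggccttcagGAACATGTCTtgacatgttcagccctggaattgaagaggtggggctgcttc
Mdm2: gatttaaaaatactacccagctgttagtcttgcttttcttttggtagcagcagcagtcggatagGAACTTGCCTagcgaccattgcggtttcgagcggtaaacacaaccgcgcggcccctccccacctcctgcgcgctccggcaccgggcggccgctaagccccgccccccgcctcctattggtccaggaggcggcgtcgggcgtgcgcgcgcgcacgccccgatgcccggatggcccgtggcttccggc
Ccng1: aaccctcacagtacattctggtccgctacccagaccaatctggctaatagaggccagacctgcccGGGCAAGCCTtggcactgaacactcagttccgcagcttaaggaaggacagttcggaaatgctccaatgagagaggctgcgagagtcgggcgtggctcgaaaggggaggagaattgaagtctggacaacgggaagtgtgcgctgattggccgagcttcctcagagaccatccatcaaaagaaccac
Polk: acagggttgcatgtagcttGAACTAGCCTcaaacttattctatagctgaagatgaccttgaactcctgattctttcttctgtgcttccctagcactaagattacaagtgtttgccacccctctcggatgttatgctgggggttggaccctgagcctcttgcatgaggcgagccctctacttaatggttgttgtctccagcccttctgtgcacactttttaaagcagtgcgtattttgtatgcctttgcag
The Cdkn1a promoter belongs to the upstream of its 2 listed start sites and holds 2 half-sites, which begin at positions -73 and -51 from the start and are 12 bases apart. The search allowed no mismatch. The bases tgacatgttc directly after the half-site at -51 miss the pattern only at their opening base and are not marked. Cdkn1a and Polk each have a second listed start site whose promoter holds none. A half-site stood in 11 of the 27 promoters found for 20 of the 28 p53 targets (40.7%), against 8.36% of all promoters searched. Among the 9 separated members it stood in promoters of 4, and among members that overlapped it also stood in those of Sesn1, Aen, Ei24, Gtse1, Ddit4l and Ckap2. The search used both strands and the 300 bases around each start, and a match is a description of the letters.

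Lists of repair, apoptosis and cell cycle genes were compared in the same way. Of 23 DNA damage and repair genes measured, 0 were separated and 0 had an unadjusted p under 0.05. Gadd45a, a growth arrest gene, read 9.48, 8.97 and 10.27 on GFP and 7.97, 9.64 and 9.36 on Cre (-0.58 ± 0.49), with the spread inside each group larger than the difference. Of 18 apoptosis genes, 3 were separated with Cre higher (16.7%, against 5.08% of genes with a mean of at least 6). Among them was Apaf1, the scaffold of the apoptosome, at 8.05 to 8.13 on GFP and 8.31 to 8.61 on Cre (0.34 ± 0.11). Of 29 cell cycle genes 0 were separated. Cdk1, the mitotic kinase, read 8.65, 9.89 and 9.44 on GFP and 9.43, 8.72 and 8.46 on Cre, and the list's median was -0.13. It was -0.06 without Cre 3 and ran from -0.32 to 0.14 with single arrays left out.

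Over all genes, the 15 with the smallest p among separated genes with a mean of at least 6 and Cre higher had differences of 0.38 to 2.09. They were drawn from 536 such genes, 5.08% of the 10556 with that mean. Since they were ranked by that comparison, their values are a description. Mapkapk3, a kinase downstream of p38, headed them, at 7.81, 7.68 and 7.71 on GFP and 8.20, 8.31 and 8.22 on Cre (0.51 ± 0.08). The spread inside the groups was small (SD 0.07 on GFP and 0.06 on Cre), and the arrays labelled WNT4 read 8.62, 8.52 and 8.63. Another Mapkapk3 probe set differed by 0.12. Ak1, adenylate kinase, read 9.15, 8.89 and 9.05 on GFP and 9.75, 9.58 and 9.48 on Cre (0.57 ± 0.11). The largest difference was that of Nt5e, the ecto-enzyme CD73 that makes adenosine, at 5.73, 4.76 and 5.40 on GFP and 7.95, 6.94 and 7.26 on Cre (2.09 ± 0.44), a ratio of 4.26. Nt5e was higher still on the arrays labelled WNT4, at 9.66, 7.97 and 8.56, while another of its probe sets differed by -0.05. Mt1, the metal-binding protein metallothionein, read 12.19 to 12.36 on GFP and 12.84 to 13.38 on Cre (0.77 ± 0.18). Lpin1, a phosphatidate phosphatase, Pcyt1a, the rate-limiting enzyme of phosphatidylcholine synthesis, and Rorb, an orphan nuclear receptor, differed by 0.65 ± 0.13, 0.71 ± 0.17 and 0.94 ± 0.22. Other probe sets of Lpin1 and Pcyt1a gave differences as small as 0.35 and 0.22. The rest were Axin2, Cdkn1a and Fzd1, described above, and Jph1, Anxa7, Prep, Kank3 and Pgrmc2, at 0.38 to 0.91. Other probe sets of Anxa7 and Pgrmc2 gave as little as 0.22 and 0.23. Of the 15, 13 had a still higher mean on the arrays labelled WNT4, the exceptions being Axin2 and Fzd1.

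The 15 ranked in the same way with Cre lower had differences of -1.48 to -0.31 and were drawn from 194 such genes (1.84%). Krt20, an epithelial keratin, had the smallest p of them and read 7.44, 7.46 and 7.80 on GFP and 6.20, 6.56 and 6.56 on Cre (-1.13 ± 0.17). The arrays labelled WNT4 read lower again, at 5.51, 5.26 and 5.82. Fgd5, an exchange factor for CDC42, had the largest difference, at 6.93, 8.50 and 8.37 on GFP and 6.59, 6.80 and 5.98 on Cre (-1.48 ± 0.42). GFP 1 was close to the Cre arrays in Fgd5. Ptprd, a receptor tyrosine phosphatase, read 11.41, 11.78 and 12.05 on GFP and 11.06, 11.35 and 10.64 on Cre (-0.73 ± 0.21). Rad54l, a recombination repair helicase, read 6.46, 6.85 and 7.22 on GFP and 6.32, 6.34 and 6.08 on Cre (-0.59 ± 0.18). Itsn1, an endocytic scaffold, differed by -0.49 ± 0.13, and Arhgef6, an exchange factor for Rac, by -0.37 ± 0.11. Atp10d, Rangrf, Gpsm2, Ubn2, Zfp523, Alox5, Gab2 and Cryba2 differed by -0.64 to -0.31. Other probe sets of Itsn1 and Gab2 gave differences as small as -0.07 and -0.05. In 10 of the 15 the WNT4 mean lay beyond the Cre mean in the same direction.

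**Figure D3:**
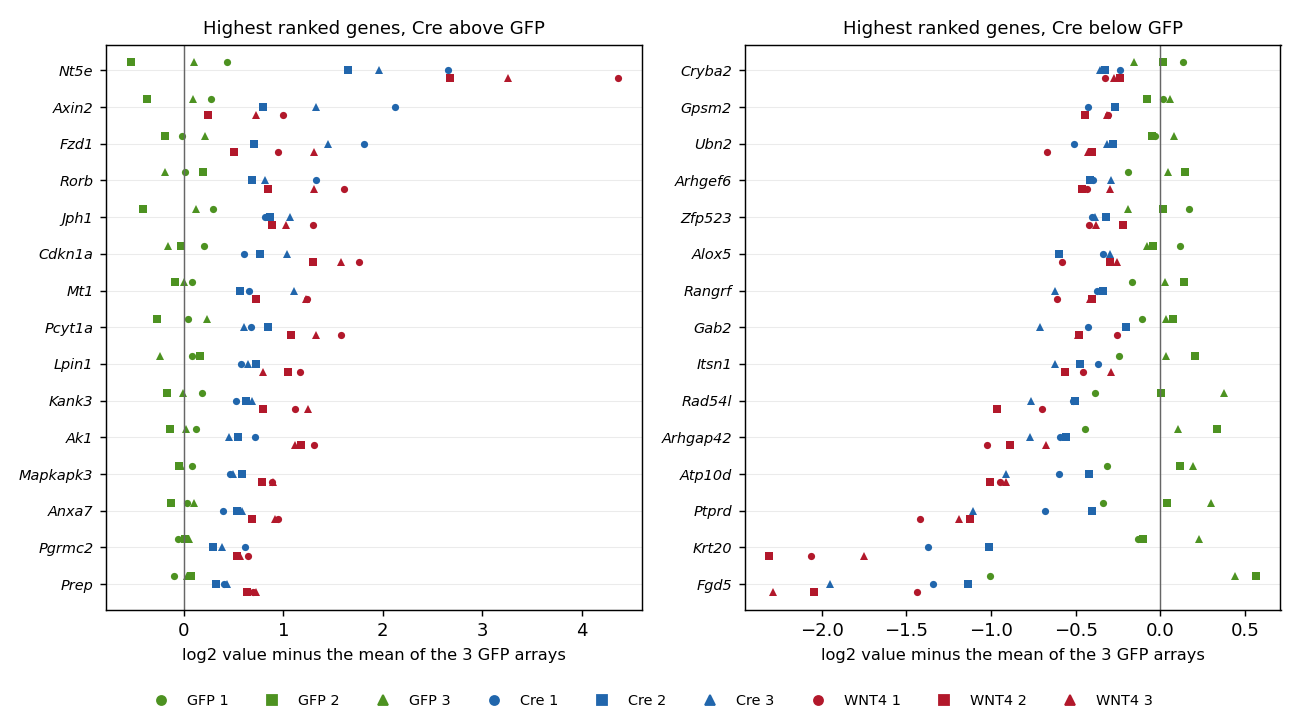
The 15 top-ranked separated genes with Cre above GFP (left) and with Cre below GFP (right), each array as its log2 value minus the mean of the 3 GFP arrays (horizontal axis). Colours mark the groups and symbols the replicate numbers. Nt5e spans the widest range, and in Fgd5 the array GFP 1 lies near the Cre arrays.

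Genes that respond to FSH or mark granulosa cells were mostly below the GFP mean. Of 22 measured, 17 had a difference below 0, where the median of all genes was -0.01. At an unadjusted p under 0.05 were 3, all with Cre lower (1.29% of all genes). With Cre lower 2 were separated, against 2.64% of all genes and 1.84% of those with a mean of at least 6. Bmpr1b, a BMP receptor of granulosa cells, read 10.25, 10.88 and 11.26 on GFP and 10.09, 10.31 and 9.40 on Cre (-0.86 ± 0.29, or -0.60 without Cre 3). GFP 1 lay below Cre 2, so the groups overlapped. The 2 separated genes were Foxl2 and Amh, given above. Without Cre 3 the list's median went from -0.14 to -0.004. Fshr, the FSH receptor, differed by -0.09 ± 0.28, or 0.06 without Cre 3.

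Of 21 genes of the LH response 3 were separated with Cre higher (14.3%), and of 11 luteal genes 3 (27.3%). The share with Cre higher was 3.56% of all genes and 5.08% of those with a mean of at least 6. Cebpa and Cebpb, transcription factors that follow the LH surge, were separated. Cebpa read 6.69, 6.62 and 6.93 on GFP and 7.28, 7.10 and 7.17 on Cre (0.44 ± 0.13). Cebpb read 9.09 to 9.35 on GFP and at least 9.45 on Cre (0.50 ± 0.17), while another of its probe sets differed by 0.20. Plat, tissue plasminogen activator, was the third separated gene of 21 in the LH list, at 0.70 ± 0.26. The classical ovulatory genes Ptgs2, Pgr and Ereg were dim on most arrays and overlapped between the groups. Among 11 luteal genes 3 were separated, namely Cdkn1a, Parm1 and Vegfa, and the median was 0.35, or 0.32 without Cre 3. Vegfa, a growth factor gene that the hypoxia list also holds, read 6.83, 7.14 and 7.14 on GFP and 7.25, 7.43 and 10.47 on Cre (1.35 ± 0.95), or 0.30 without Cre 3. Parm1, a mucin-like membrane protein, read 10.83, 10.63 and 10.59 on GFP and 11.09, 10.93 and 11.08 on Cre (0.35 ± 0.12).

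The steroid-forming enzymes overlapped between the groups. Cyp11a1, which makes pregnenolone, read 13.31, 12.03 and 13.01 on GFP and 12.33, 13.65 and 13.26 on Cre (0.30 ± 0.41). Star, the cholesterol transporter of mitochondria, read 7.91, 6.45 and 6.94 on GFP and 7.75, 8.22 and 7.81 on Cre (0.83 ± 0.50). GFP 1 overlapped the Cre arrays in both. Hsd17b7, an enzyme of cholesterol and estradiol synthesis, read 11.54, 11.15 and 11.52 on GFP and 10.02, 11.37 and 10.26 on Cre (-0.85 ± 0.36), with Cre 2 inside the GFP range. Of the 15 genes of the steroidogenesis list 1 was separated (6.67%, against 3.56% of all genes with Cre higher), and of 19 cholesterol synthesis genes 0. The separated gene was Nr5a1, a regulator of these enzymes, at 0.18 ± 0.11.

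Interferon-response genes, a common sign of infection in cultured cells, were separated in 6 of 26 with Cre higher (23.1%, against 3.56% of all genes). In limma 0 of the 26 had an unadjusted p under 0.05, and that p also takes in the spread of the WNT4 arrays. Irf9, a subunit of the interferon-activated factor ISGF3, read 5.97, 5.75 and 6.27 on GFP and 6.51, 6.62 and 7.10 on Cre (0.75 ± 0.43). Its SD was 0.26 on GFP, 0.31 on Cre and 1.01 on the arrays labelled WNT4. Cre 3 was the highest of the 6 arrays in 15 of the 26 genes, and the list's median went from 0.26 to 0.11 without it. Gbp3, an interferon-induced GTPase, read 5.10 to 5.19 on GFP and 5.41, 5.23 and 6.80 on Cre, a difference of 0.69, or 0.19 without Cre 3. The immediate early genes held Klf4, a Kruppel-like factor, at 8.08, 7.55 and 7.84 on GFP and 9.05, 8.49 and 9.78 on Cre (1.28 ± 0.51, or 0.94 without Cre 3). Another Klf4 probe set differed by 0.41. Egr1, an LH- and serum-induced factor, read 10.18, 10.51 and 10.36 on GFP and 9.99, 10.16 and 9.69 on Cre (-0.40 ± 0.17, or -0.28 without Cre 3). Klf4 and Egr1 were both separated, in opposite directions. Of 20 immediate early genes 2 were separated with Cre higher (10%) and 1 with Cre lower (5%). Among genes with a mean of at least 6 these shares were 5.08% and 1.84%. Of the 20 unfolded protein response genes 1 was separated with Cre higher (5%), near the share of bright genes, and of 13 heat shock genes 2 (15.4%).

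**Figure D4:**
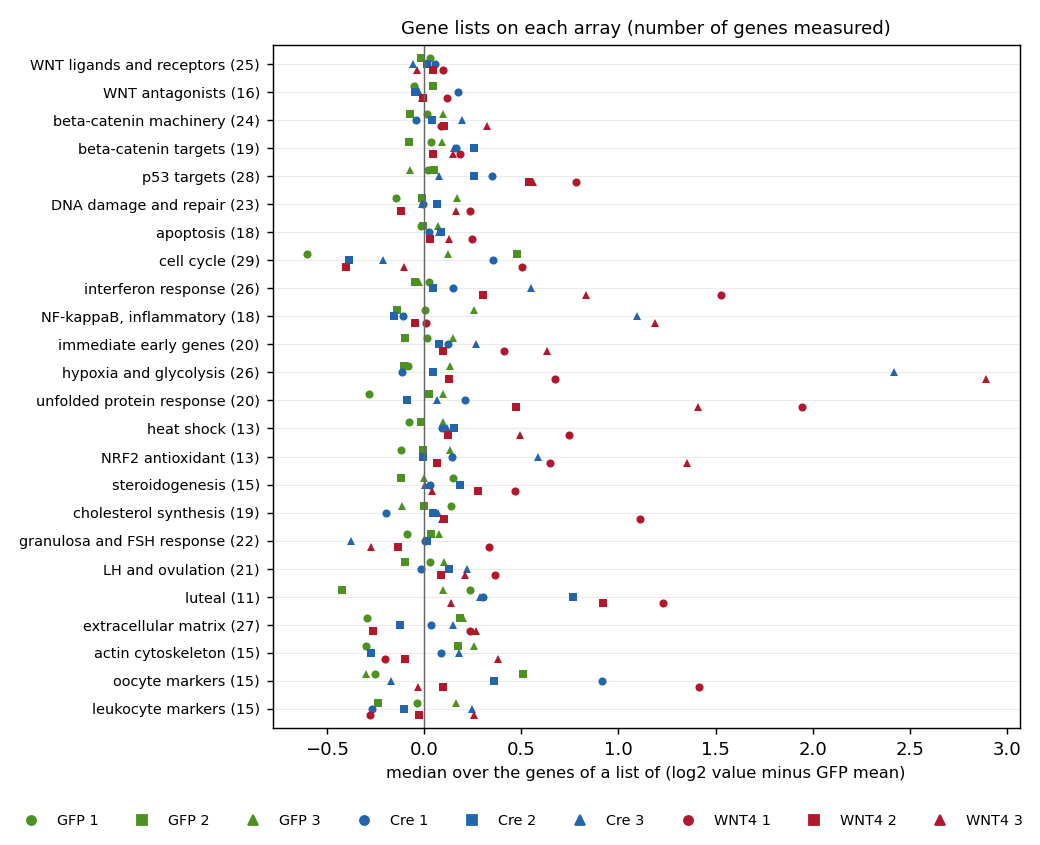
Median over each gene list of the log2 value minus the GFP mean (horizontal axis), for each of the 9 arrays. Colours mark the groups and symbols the replicate numbers. Hypoxia and glycolysis genes reach 2.42 on Cre 3 and 2.89 on WNT4 3 and lie near 0 on Cre 1 and Cre 2.

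Hypoxia and glycolysis genes had the largest list median, 0.80, and it came from 1 array. By array the median was -0.11 on Cre 1, 0.05 on Cre 2 and 2.42 on Cre 3, against -0.10 to 0.13 on the GFP arrays, and without Cre 3 the median difference was -0.03. Egln3, the oxygen-dependent prolyl hydroxylase PHD3, read 5.19, 5.01 and 5.17 on GFP and 4.94, 5.15 and 10.76 on Cre. Ndrg1, a stress-induced gene, read 8.37, 8.49 and 8.93 on GFP and 8.29, 8.53 and 12.64 on Cre. Slc2a1, the glucose transporter GLUT1, read 8.88, 8.56 and 8.87 on GFP and 8.30, 8.83 and 12.43 on Cre. In each of them Cre 3 alone was high, and Cre 1 and Cre 2 lay near the GFP arrays. Cre 3 was the highest of the 6 arrays in 24 of the 26 genes and over 1 above the GFP mean in 24, while Cre 1 and Cre 2 were over 1 above it in 0. None of the 26 had an unadjusted p under 0.05. WNT4 3 shared the pattern, with 11.46 for Egln3, 13.18 for Ndrg1 and 12.51 for Slc2a1. The letters ACGTG of the hypoxia response element stood in 20 of the 33 promoters found for 24 of these genes (60.6%), against 19.6% of all promoters searched.

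Of 18 inflammatory genes of the NF-kappaB pathway, 15 were highest on Cre 3 among the 6 arrays. Of the 15 leukocyte markers, 8 were highest on Cre 3 and 3 were over 1 above the GFP mean there, and their part in this was not tested. Cxcl2, a neutrophil chemokine, read 4.54, 4.88 and 7.92 on GFP and 4.59, 4.71 and 10.46 on Cre. Tnfaip3, which encodes the inhibitor A20, read 5.02, 6.10 and 8.07 on GFP and 5.94, 5.78 and 10.19 on Cre. In both genes GFP 3 was the highest GFP array. Saa3, an acute-phase protein, read 7.61, 6.31 and 7.74 on GFP and 6.33, 7.67 and 12.43 on Cre, with GFP 3 close to GFP 1. The list's median was 0.15 over 18 genes and -0.12 without Cre 3, and 0 members were separated. Summed over the list, the level ran from 12.40 to 13.45 on GFP and from 12.24 to 14.65 on Cre (log2).

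**Figure D5:**
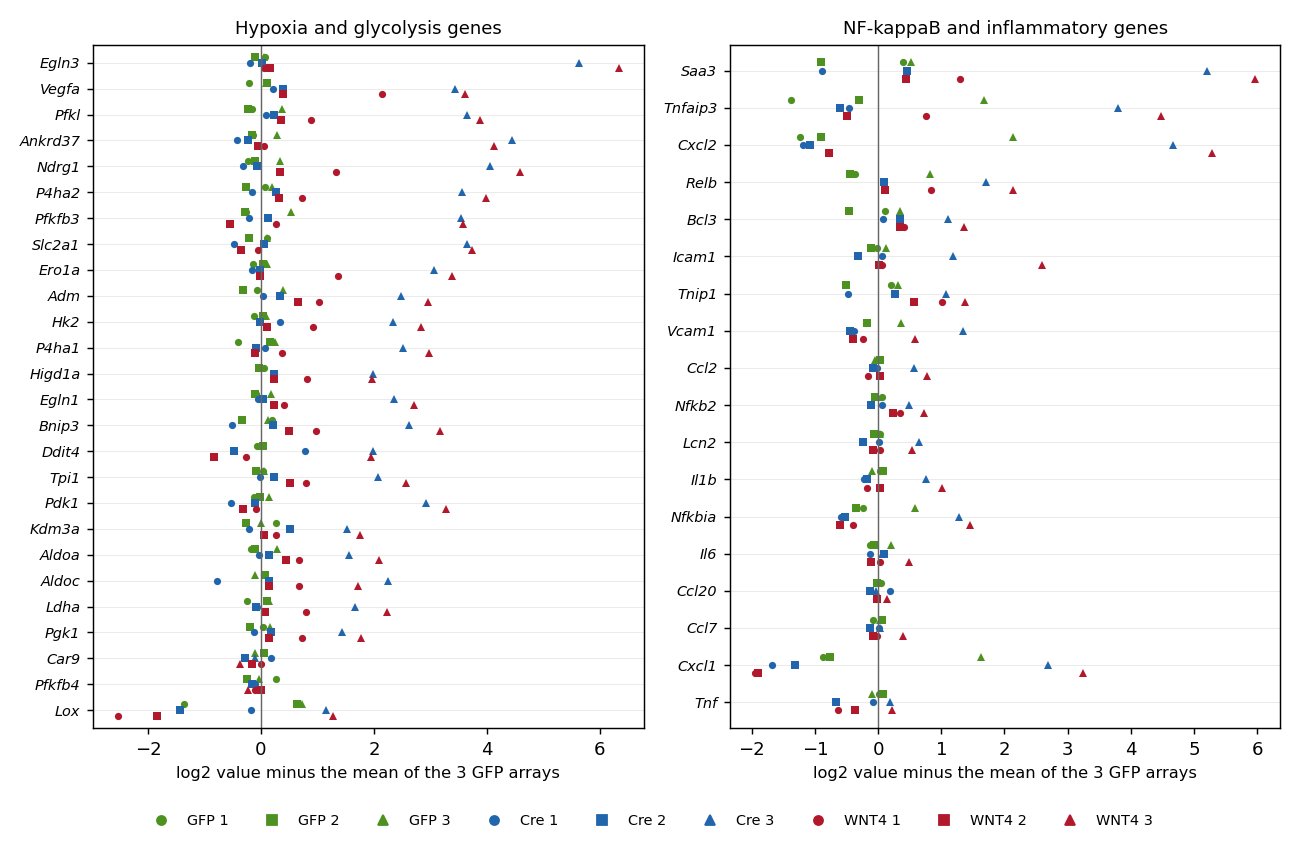
Hypoxia and glycolysis genes (left) and NF-kappaB and inflammatory genes (right), each array as its log2 value minus the mean of the 3 GFP arrays (horizontal axis). Colours mark the groups and symbols the replicate numbers. Cre 3 and WNT4 3 lie far right in Egln3 and Saa3, while Cre 1 and Cre 2 lie among the GFP arrays.

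Without Cre 3 the 15 higher genes had differences of 0.36 to 2.15 and the 15 lower genes of -1.24 to -0.28. Their signs could not turn, because these genes were chosen as separated. For any 1 gene, the smallest p that exact permutation of 3 and 3 arrays can give is 0.1, and the number of arrays limits the precision throughout.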

How the data were processed

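RNA was measured on 9 Affymetrix mouse arrays, 6 of them used for the comparison with Cre. The values are on a log2 scale, read from their range (3.46 to 15.3), and were made by the authors with RMA, per the submitters' processing notes. RMA corrects background, equalises the arrays and summarises probes, so overall signal differences are already reduced. Of 45101 probe sets, 64 controls were left out. Platform annotation gave 34945 probe sets 1 symbol, 932 several (not named) and 9160 none here. RefSeq (GRCm38.p6) updated 34741 of these symbols by Entrez ID. limma 3.58.1 in R 4.3.3 fitted all 9 arrays with no covariate (6 residual and 2.8 prior degrees of freedom).

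A gene's value is that of its brightest probe set over the 9 arrays. Groups were called separated where no array of a group reached the other group's range. The genes named were all probe sets of Ctnnb1, Wnt4 and Axin2, the top 15 separated genes each way, up to 4 members of each of 31 lists, the 10 genes that set an array furthest apart, and other members chosen after their values were seen. Members and lists were chosen with earlier results of these data known. Listed genes without a named probe set, Cyp19a1 among them, are not analysed here, and probe sets are given no coordinates. Promoters are 250 bases before to 50 after RefSeq starts. Alternatives covered scaling, filters, probe set choice, the replicate block, leaving out each Cre or GFP array, and leaving out Cre 3 and WNT4 3 together. No WNT4 array was left out alone. The fit was tested on simulated data.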

Additional observations from a re-analysis of the deposited data

How the results depend on the processing

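The count at an adjusted p under 0.05 was 0 in every alternative except the fit without GFP 1, which called 1, and it was also 0 at an adjusted p under 0.1. That probe set (Gm15866) read 5.63, 8.35 and 8.23 on the GFP arrays and 5.50 to 5.75 on the Cre arrays, and leaving out arrays gave 0 to 1 calls. The 1006 probe sets at an unadjusted p under 0.05 became 591 to 2404 with an array left out (591 without GFP 2, 2404 without GFP 3, where 33.7% were higher against 45.2%), 1897 with array weights, 389 with 1 probe set per gene, and 364 with a mean of at least 6, where 71.2% were higher. Median centring gave 63.7% higher and the 6 arrays alone 61.2%. The 2712 separated probe sets became 1308 with a mean of at least 6, 74.2% of them higher. A fit with the replicate block gave 0 calls and 1428 at an unadjusted p under 0.05, with a smallest adjusted p of 0.178 (limma). Same-numbered GFP and Cre arrays deviated with correlations of -0.04, -0.31 and 0.31. Arrays numbered 3 deviated together, with WNT4 3 at 0.35 to GFP 3 and 0.77 to Cre 3. For numbers 1 and 2 the correlations with the WNT4 array were -0.08 to 0.24. The labels name no batch, so the numbers were not taken as pairs, and what the arrays numbered 3 share was not tested.

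The brightest Ctnnb1 probe set gave -0.058 with quantile normalization, -0.011 with 75th percentile centring, and -0.12 to 0.20 with arrays left out, and the other 2 gave -0.081 to 0.21 and -0.039 to 0.37. Of 2107 values of named probe sets under alternatives 17 reversed, none of them among the top 15 separated genes each way. Those genes were chosen as separated, so leaving out an array could not reverse them. The dim Axin2 probe set gave -0.015 with 75th percentile centring, -0.0145 with array weights and -0.15 to 0.16 with arrays left out. The mean of all probe sets gave 0.16 for Csnk1d and 0.0165 for Foxm1. Without Cre 3 and WNT4 3, Saa3 gave -0.22 and Nfkb2 -0.026, and leaving out single arrays gave -0.22 to 2.83 and -0.026 to 0.28. The cause was not tested. Of 527 list medians under alternatives 10 moved by more than the replicates' SD.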

Other observations

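Arrays of different groups shared another pattern that no label names. The deviations of GFP 2 and Cre 1 from the means of their groups correlated at 0.51 over 45037 probe sets. Cntnap2, a neurexin-family adhesion protein, read 5.92, 8.50 and 6.43 on GFP 1, 2 and 3 and 8.82, 6.18 and 6.22 on Cre 1, 2 and 3. Dmrta1, a transcription factor gene, read 4.91, 7.26 and 5.97 on GFP and 8.47, 5.97 and 5.42 on Cre. Ptgfr, the prostaglandin F receptor of luteal cells, ran the other way, at 9.69, 7.25 and 8.92 on GFP and 6.82, 9.79 and 9.05 on Cre. The medians of the cell cycle list were also highest on these arrays, at 0.48 on GFP 2 and 0.35 on Cre 1, against -0.60 and 0.12 on the other GFP arrays and -0.39 and -0.21 on the other Cre arrays. All 4 of these measures overlapped between Cre and GFP.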
